A study of Mus musculus with 2 samples.

Results

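The 10 imprinted genes followed here act on growth. They are Peg3, Peg10, Igf2, Dlk1, Mest, Plagl1, H19, Meg3, Cdkn1c and Grb10, found by symbol in cultured vascular smooth muscle cells (VSMCs) of the mouse aorta, and make up 10 of the 32285 genes in the count table. The set was selected on its measured levels by hashtag and in Acta2-high and Clu-high cells, so the levels by hashtag and the ratios below describe the members and carry no test.

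Imprinted genes are read mainly from the copy inherited from a single parent, because DNA methylation set in the egg or the sperm marks the parental copies differently. Many lie in clusters that share a control region, and in a simplified textbook view the paternally expressed members tend to promote growth while the maternally expressed members restrain it. Several, Igf2 and H19 among them, are high in fetal tissues and low after birth, and imprinting can be relaxed or altered in cultured cells.

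The cells were primary aortic VSMCs of C57BL/6 mice bought from 2 vendors and used within 3 passages. Of the 4 groups, the first was young (mice of 12 weeks), the next old (58 to 78 weeks), the third young cells given 100 nM angiotensin II (AngII) for 48 h, and the last old cells given siRNA against the channel gene Piezo1 for 48 h. The siRNA dose was 20 nM by the labels and the methods of the paper, while the results text of the paper names another. The labels list a non-targeting siRNA pool, and the paper describes the old cells of its protein comparison as treated with it. Neither states this for the old cells of the library, which vendor lots went into which group, or how many cultures a group had. Each group was labelled with an antibody carrying a DNA hashtag and all were mixed into 1 droplet library, where a unique molecular identifier (UMI) lets every captured RNA be counted a single time. The sample labels do not pair hashtags with groups. A schematic in the paper numbers young 1, old 2, young with AngII 3 and old with Piezo1 siRNA 4 without saying that these are tag numbers, so the cells are called by tag number here. Piezo1 stood at 86.9 CPM (UMIs of the gene over all UMIs, scaled to 1e+06; 95% counting interval 82.4 to 91.5) in tag 4 and 89.7 (82.0 to 97.9) in tag 2, so the target gene gives no check on which tag carried the siRNA.

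Barcodes past a minimum depth and 200 genes were kept as cells, 13045 in all with a median depth of 7915 UMIs, and the shallowest tagged cell held 2248 UMIs. A cell belonged to a tag when only that tag exceeded its cutoff (36, 52, 61 and 41 tag UMIs for tags 1 to 4). This gave 3144, 497, 1500 and 1529 cells in tags 1 to 4, with median depths of 6816, 10663, 9453 and 9792 UMIs, while 5307 cells had no tag and 1068 had several. The median count of the own tag was 364 in tag 1 and 76, 113 and 67 in tags 2 to 4. A stricter tag rule asked that the highest tag pass its cutoff and reach 3-fold the count of any other. It was applied anew to all cells, so it could also take in cells counted above as having several tags. It gave 3055, 189, 1414 and 490 cells in tags 1 to 4. Tags 2 and 4 thus separated poorly and lost most of their cells, while the numbers of tags 1 and 3 changed little. The 9 VSMC markers summed to 1316, 2133, 1489 and 1019 CPM in tags 1 to 4, and all 9 were detected in each. Sums over 5 markers each were 39.5 to 77.4 CPM for fibroblasts, 6.15 to 11.7 for macrophages, 4.42 to 8.83 for endothelial cells and 4.53 to 22.5 for epithelial or mesothelial cells. Mitochondrial genes took 1.05%, 1.67%, 0.587% and 1.65% of the UMIs. The part that any of these has in the values below was not tested.

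The tags also differed in the sex of the cells. In tags 1 and 3, 54.1% and 55.5% of cells had a UMI of 1 of 4 Y-linked genes and none of Xist, the RNA that silences an X chromosome in females, and 4.90% and 6.27% had Xist alone. In tags 2 and 4 the order was turned, with 19.5% and 13.8% Y-linked only and 63.0% and 66.8% Xist only. Sex composition and tag therefore varied together, and values within cells of each kind are given below.

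Levels are the UMIs of a gene over all UMIs of a group of cells, scaled as above, with exact Poisson 95% intervals. Ratios carry exact binomial 95% intervals. Both cover counting error only, not the spread between cultures, because each tag was a single group in a single library and cells are not replicates. A gene was compared where the cells of both groups held at least 50 of its UMIs together and was called higher or lower past a ratio of 2. Barcodes with 1 to 100 UMIs, called near-empty here, held 2096028 UMIs. Their level is taken as that of free RNA, and whether they hold RNA of another source was not tested.

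Start regions are shown for the 3 members with the most UMIs, Meg3, Peg3 and Grb10, as the first varied little between tags and the other members shown did not. Each is the longest stretch, within the 250 bases before the RefSeq start, that overlaps no annotated exon. They come from the RefSeq promoter table (GRCm38.p6), in which 7 of the 10 members had 14 windows, and capitals mark CpG pairs, the sites that methylation uses. They are the minus strand of chr7:6730432-6730577, the plus strand of chr12:109540746-109540995 and the minus strand of chr11:12037421-12037670.
Peg3: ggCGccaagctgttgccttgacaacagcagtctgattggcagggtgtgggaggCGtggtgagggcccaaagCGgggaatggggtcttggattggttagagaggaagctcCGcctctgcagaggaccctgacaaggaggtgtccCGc
Meg3: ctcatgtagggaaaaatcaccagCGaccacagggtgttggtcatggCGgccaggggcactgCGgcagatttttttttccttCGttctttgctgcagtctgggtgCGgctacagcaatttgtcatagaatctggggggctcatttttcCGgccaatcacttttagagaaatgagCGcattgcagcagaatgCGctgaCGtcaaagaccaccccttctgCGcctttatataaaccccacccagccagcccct
Grb10: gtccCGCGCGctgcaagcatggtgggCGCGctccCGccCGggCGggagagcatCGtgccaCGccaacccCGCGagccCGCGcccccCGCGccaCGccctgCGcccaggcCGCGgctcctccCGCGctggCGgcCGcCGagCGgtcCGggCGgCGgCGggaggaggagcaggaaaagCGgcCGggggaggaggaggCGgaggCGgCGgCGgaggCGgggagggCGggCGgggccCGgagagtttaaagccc
The Peg3 stretch of 146 bases is the whole gap to the start of Usp29, another imprinted gene that runs the other way. It held 5 CpG pairs, and the whole Peg3 window of 250 bases held 8. The windows printed for Meg3 and Grb10, of 250 bases each, held 10 and 40. Each of these genes had another window, not printed, with 0 CpG pairs for Meg3 and 8 for Grb10. Over all 32851 windows of 250 bases the median was 6 CpG pairs. The palindrome TGACGTCA, the cAMP response element, reads the same on both strands. It was found in 2 of the 14 member windows and in 1.55% of all windows. The 2 were that of Peg3 (outside the stretch printed, over an exon of Usp29) and the Meg3 window printed. This motif was looked for after its letters had been seen in the windows. The hexamer TGCCGC, searched on both strands and bound by the imprint-protecting zinc finger protein ZFP57 when methylated, was in 4 of the 14 and in 8.68% of all windows. A pair of the 4 were Mest windows that overlap almost fully, so by gene it was in 3 of 7 members and in 9.84% of all genes with a window. A match is a description of letters, not a site in use.

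**Figure D1:**
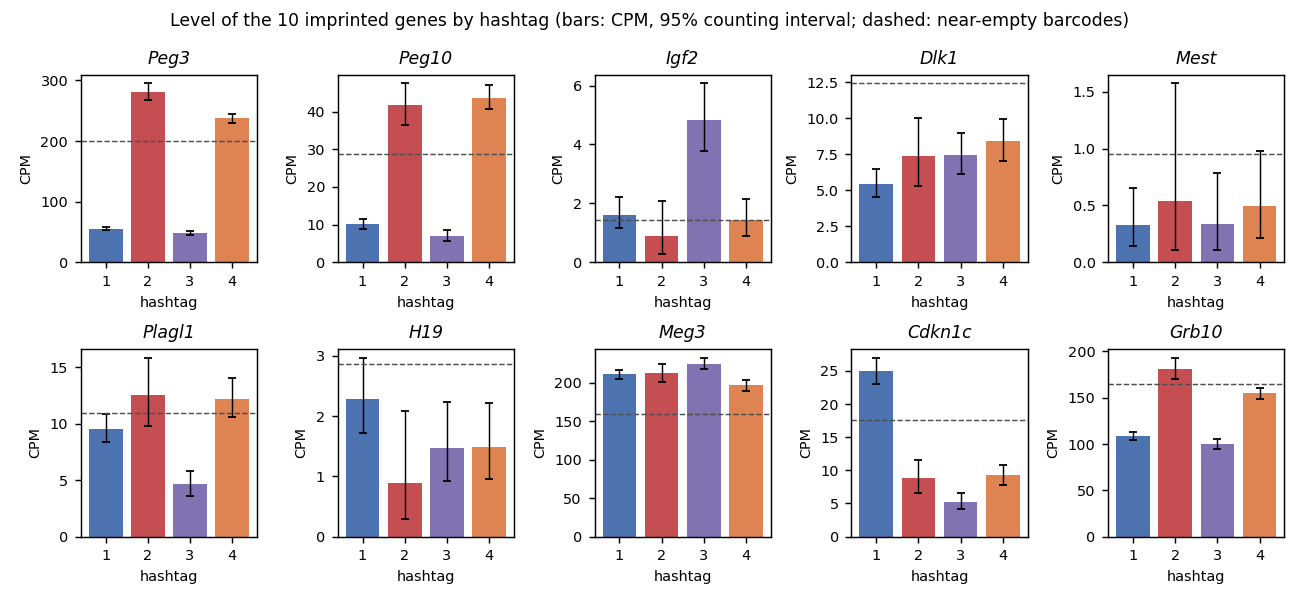
Level of each member in CPM on the vertical axis for the cells of hashtags 1 to 4, with bars for the level, whiskers for the 95% counting interval and a dashed line for near-empty barcodes. Peg3, Peg10 and Grb10 sit higher in tags 2 and 4 than in tags 1 and 3, Cdkn1c is highest in tag 1, Igf2 is highest in tag 3, and Meg3 lies between 197 and 225 in each tag.

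Among the paternally expressed genes, Peg3 and Peg10 set tags 2 and 4 apart from tags 1 and 3. Peg3 (ENSMUSG00000002265; chromosome 7, 6703892 to 6730431, minus strand, GRCm38 positions from GENCODE vM21 by gene identifier, as the authors' build is not stated in any source used here) encodes a zinc finger protein that takes part in growth, maternal behaviour and cell death pathways. Tag 1 held 55.4 CPM (52.5 to 58.5), tag 2 281 (267 to 295), tag 3 47.9 (44.4 to 51.5) and tag 4 238 (230 to 245). Tags 2 and 4 lay far above tags 1 and 3, and the intervals of no 2 tags overlapped. After thinning each cell to 5000 UMIs, 15.2% (13.8 to 16.7) of tag 1 cells, 50% (45.4 to 54.6) of tag 2, 13% (11.2 to 14.9) of tag 3 and 42.5% (40 to 45.2) of tag 4 cells had a Peg3 UMI. The intervals of these shares are exact binomial over the cells of this library and do not cover the spread between cultures. Without thinning these shares were 18.38%, 63.2%, 20.7% and 53.8%. Free RNA held 200 CPM of Peg3 (182 to 220.5), above the level in the cells of tags 1 and 3. The counts per cell were broad, with a variance 3.26 times the mean over all thinned cells and up to 90 UMIs in a cell.

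Peg10, derived from a retrotransposon and needed for the placenta, lies on chromosome 6 (4747306 to 4760517, plus strand). Tag 1 held 10.2 CPM (8.93 to 11.5), tag 2 41.8 (36.6 to 47.5), tag 3 7.03 (5.75 to 8.51) and tag 4 43.8 (40.6 to 47.1). Tags 2 and 4 overlapped, tag 1 stood above tag 3 without overlap, and free RNA held 28.6 CPM (21.8 to 36.9). A UMI was present in 3.42%, 16.0%, 2.35% and 17.2% of thinned cells of tags 1 to 4, and in 5.50%, 24.55%, 5.20% and 27% of the unthinned cells.

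Igf2, a fetal growth factor, lies on chromosome 7 (142650766 to 142666816, minus strand) and was scarce. Its UMIs numbered 39, 5, 72 and 23 in tags 1 to 4, which is 1.62 CPM (1.15 to 2.21) for tag 1, 0.897 (0.291 to 2.09) for tag 2, 4.82 (3.77 to 6.07) for tag 3 and 1.43 (0.905 to 2.14) for tag 4. The interval of tag 3 lay above the other 3, which overlapped each other. Igf2os overlaps this gene on the opposite strand. Only 177 of 13045 cells held a UMI of Igf2, and 4 cells with 5 UMIs or more held 12.99% of its 254 UMIs. In tag 3 the highest cell held 9 UMIs.

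Dlk1, a membrane protein with EGF-like repeats that resembles the Notch ligands, lies on chromosome 12 (109452823 to 109463336, plus strand). Tag 1 held 5.43 CPM (4.54 to 6.45), tag 2 7.35 (5.28 to 9.97), tag 3 7.43 (6.12 to 8.95) and tag 4 8.38 (7.03 to 9.92), and only tags 1 and 4 did not overlap. Cells without a tag (13.8 CPM) and free RNA (12.4 CPM) stood above every tag. Plagl1, a zinc finger protein that slows the cell cycle, lies on chromosome 10 (13060504 to 13131694, plus strand) and its levels were, for tags 1 to 4 in turn, 9.58 CPM (8.38 to 10.9), then 12.6 (9.78 to 15.9), then 4.62 (3.60 to 5.85) and last 12.2 (10.6 to 14.1). Tag 3 lay below the others, which overlapped each other. Mest, a hydrolase-like protein, lies on chromosome 6 (30723547 to 30748465, plus strand), where Copg2 overlaps it on the opposite strand. It was near the limit of detection, with 8, 3, 5 and 8 UMIs in tags 1 to 4 and 56 in the whole library, so no difference between tags was detectable at this depth.

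Among the maternally expressed genes, Meg3 lay between 197 and 225 CPM in each tag, while Cdkn1c stood out in tag 1. Meg3, a long noncoding RNA of the Dlk1 cluster, lies on chromosome 12 (109541001 to 109571726, plus strand). Tag 1 held 211 CPM (206 to 217), tag 2 213 (201 to 225), tag 3 225 (217 to 233) and tag 4 197 (190 to 204). The interval of tag 2 overlapped those of the other tags, while tags 1, 3 and 4 did not overlap each other. These gaps are for counting error alone, as the variance in thinned cells was 2.13 times the mean in tag 2 and 4.63 in tag 3. A UMI was found in 48.7%, 49.4%, 46.5% and 47.3% of thinned cells, and in 53.2%, 64.0%, 60.3% and 62.2% of unthinned cells, which is the order of the median depths.

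Cdkn1c encodes the cyclin-dependent kinase inhibitor p57 and lies on chromosome 7 (143458339 to 143461050, minus strand), where Gm44732 overlaps it on the opposite strand. Tag 1 held 24.9 CPM (23.0 to 27), tag 2 8.79 (6.50 to 11.6), tag 3 5.29 (4.19 to 6.59) and tag 4 9.25 (7.83 to 10.9). Tag 1 stood alone above the rest, tag 2 overlapped tags 3 and 4, and free RNA held 17.7 CPM (12.4 to 24.3). A UMI was found in 8.89% of thinned cells in tag 1 against 3.57%, 2.35% and 4.88% in tags 2 to 4, and in 12.15%, 8.05%, 4.20% and 7.72% of unthinned cells. A single cell of tag 1 held 25 UMIs.

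Grb10, an adaptor that dampens insulin and IGF receptor signalling, lies on chromosome 11 (11930508 to 12038683, minus strand). Tag 1 held 109 CPM (105 to 113), tag 2 182 (171 to 193), tag 3 100 (95 to 105) and tag 4 155 (149 to 161). The order of the tags was that of Peg3, with tags 1 and 3 overlapping and tags 2 and 4 apart. H19, a long noncoding RNA that shares a control region with Igf2, lies on chromosome 7 (142575529 to 142578143, minus strand) and had 55, 5, 22 and 24 UMIs in tags 1 to 4 (2.28, 0.897, 1.47 and 1.49 CPM). Its UMIs lay in few cells, as only 145 of 13045 cells held any. The 131 cells with the most H19 UMIs, 1% of the library, therefore held 94.4% of them. The 9 cells with 5 UMIs or more held 23.2%, and the highest cell held 15.

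The comparison of tag 2 with tag 1 addresses age, if the numbers in the schematic are tag numbers. Of 12503 genes compared, 4.31% were higher and 7.81% lower in tag 2, and of the 8 members compared, 2 were higher and 2 lower. Peg3 was higher by a ratio of 5.07 (4.71 to 5.45) and Peg10 by 4.11 (3.42 to 4.94). Cdkn1c was at 0.353 (0.258 to 0.472) of its level in tag 1. H19 was at 0.393 (0.123 to 0.974), on 5 UMIs against 55, and its interval spanned 1 under 5 of the alternatives. Grb10 at 1.67 (1.55 to 1.80), Dlk1 at 1.35 (0.929 to 1.94) and Plagl1 at 1.31 (0.988 to 1.72) stayed inside the bound of 2, and Meg3 was at 1.01 (0.943 to 1.07). Igf2 and Mest had too few UMIs. The median log2 ratio was 0.41 over the 8 members and 0.02 over all genes compared.

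**Figure D2:**
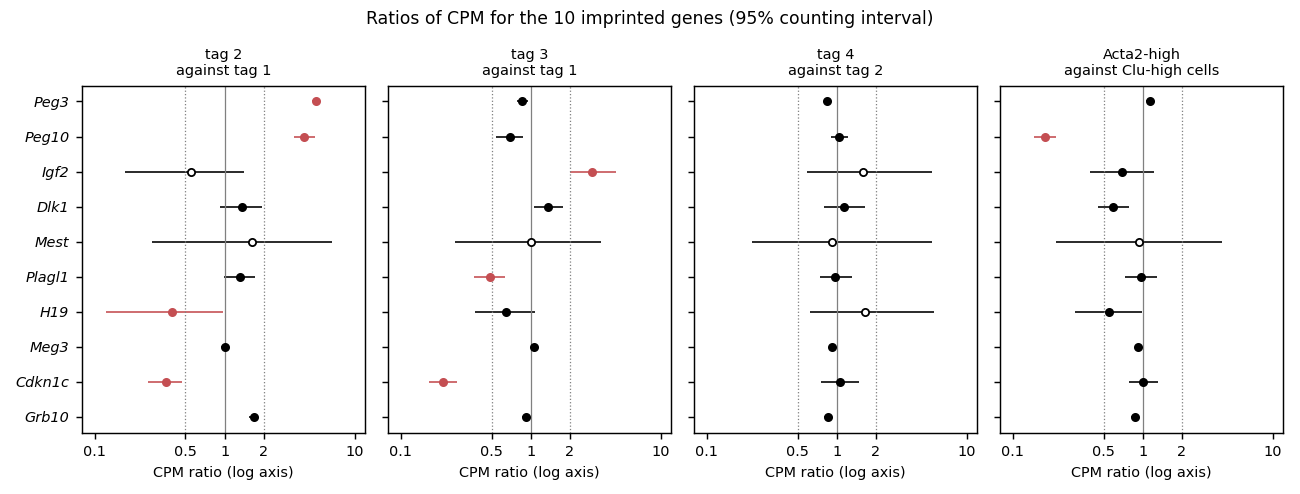
Ratio of CPM on a log axis for each member in the 4 comparisons, with whiskers for the 95% counting interval, red for ratios past 2 or under 0.5 (dotted lines) and open circles for genes with fewer than 50 UMIs in the 2 groups together. Peg3 and Peg10 lie above 2 in the first panel, Cdkn1c lies under 0.5 in the first and the second, no member is past a line in the third, and only Peg10 is in the fourth.

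The size of the Peg3 and Peg10 ratios depended on which cells were compared. Among cells with Y-linked UMIs only, Peg3 was at 40.3 CPM (37.0 to 43.9) in tag 1 and 346 (313 to 381.5) in tag 2, a ratio of 8.58 (7.52 to 9.78), and Peg10 was at 6.93 and 50.8 CPM, a ratio of 7.33 (5.19 to 10.3). Among cells with Xist only, Peg3 was at 167 CPM (147 to 188) in the 154 cells of tag 1 and 292 (274 to 311) in the 313 cells of tag 2, a ratio of 1.75 (1.53 to 2.02), and Peg10 was at 41.4 and 41.6 CPM, a ratio of 1.01 (0.743 to 1.37). The Xist-only cells of tag 1 thus held Peg3 and Peg10 well above the Y-linked cells of the same tag. In tag 2 the order was the other way for Peg3, with 346 in Y-linked cells and 292 in Xist-only cells. The 154 Xist-only cells of tag 1 held Stc1 and Igf2bp1, genes taken up below, at 53.0 and 39.4 CPM. Tag 2 held 52.2 and 48.6, and the Y-linked cells of tag 1 held 13.2 and 14.5. Igfbp3, at 34.9, lay between 10.0 in tag 2 and 71.0 in those Y-linked cells. Whether some of the 154 cells carry the wrong tag was not tested, which limits every Xist-only ratio against tag 1. Cdkn1c was at 0.370 of its tag 1 level in the Y-linked cells and at 0.705 (0.401 to 1.27) in the Xist-only cells. Without the 21.3% of cells that Scrublet called doublets, the ratio of Peg3 was 10.1 (9.12 to 11.3) and that of Peg10 was 7.08 (5.59 to 8.99). Grb10 kept a ratio between 1.36 and 1.67 in all cells and in the cells of each kind.

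**Figure D3:**
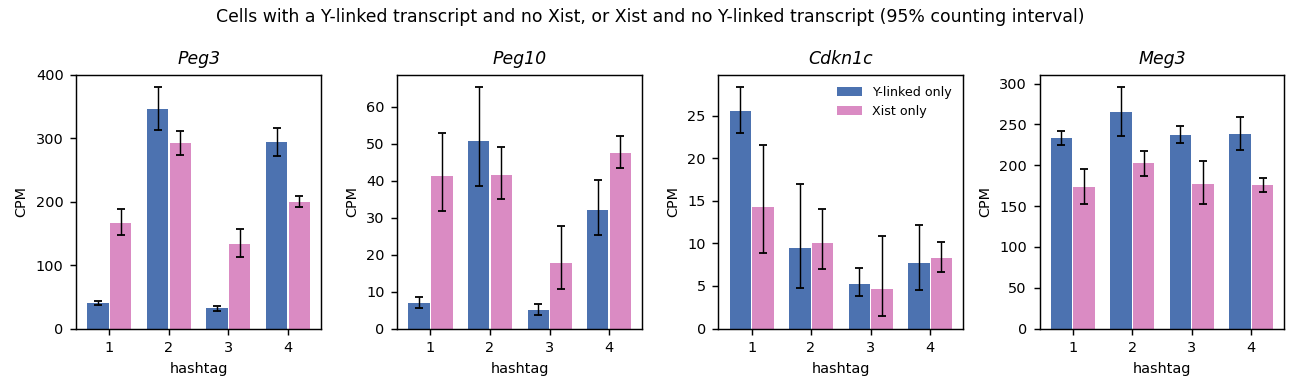
Level of Peg3, Peg10, Cdkn1c and Meg3 in CPM on the vertical axis by hashtag, for cells with a Y-linked UMI and no Xist (blue) and cells with Xist and no Y-linked UMI (pink), with 95% counting intervals. Peg3 and Peg10 differ most between tags in the Y-linked cells, at 40.3 and 346 for Peg3 in tags 1 and 2, and Meg3 is lower in Xist-only cells of each tag.

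Meg3 had a lower level in the Xist-only cells of each tag. It was at 233, 265, 237 and 238 CPM in the Y-linked cells of tags 1 to 4 and at 173, 202, 178 and 176 CPM in the Xist-only cells, and the intervals of both kinds did not overlap in any tag. H19 was at 7.11 CPM (3.55 to 12.7) in the Xist-only cells of tag 1 on 11 UMIs, against 2.31 (1.57 to 3.28) in its Y-linked cells. It had 0 UMIs in the 97 and 211 Y-linked cells of tags 2 and 4. There 3 UMIs would give 2.58 and 1.29 CPM, and the exact upper limits were 3.175 and 1.581 CPM.

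The comparison of tag 3 with tag 1, which would be AngII on young cells, shares the tag 1 cells with the comparison above. Of 12931 genes compared, 2.68% were higher and 5.8% lower in tag 3, and of the 9 members compared 1 was higher and 2 lower. Igf2 was higher by a ratio of 2.98 (1.99 to 4.52), Cdkn1c was at 0.212 (0.166 to 0.269) and Plagl1 at 0.483 (0.363 to 0.634). Peg10 was at 0.692 (0.545 to 0.874), Peg3 at 0.864 (0.788 to 0.947), Dlk1 at 1.37 (1.05 to 1.78), Meg3 at 1.06 (1.02 to 1.11) and Grb10 at 0.919 (0.862 to 0.980), none past the bound. In the Y-linked cells the ratio of Igf2 was 1.95 (1.11 to 3.44) and that of Cdkn1c 0.206. The median log2 ratio was -0.21 over the members and 0.01 over all genes.

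The comparison of tag 4 with tag 2, which would be Piezo1 siRNA on old cells, shares the tag 2 cells with the first. Of 11836 genes, 1.01% were higher and 0.6% lower, and of the 7 members compared 0 were past a ratio of 2 either way. Peg3 was at 0.847, Peg10 at 1.05 (0.902 to 1.22), Cdkn1c at 1.05 (0.758 to 1.49), Grb10 at 0.852 (0.792 to 0.917) and Meg3 at 0.925 (0.865 to 0.990). The intervals of Peg3, Grb10 and Meg3 lay wholly under 1 and inside the bound, and no test between cultures was possible. The median log2 ratio was -0.04 over the 7 members and 0.03 over all genes.

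Classes of cells were also set by Acta2, smooth muscle actin, and by Clu, the chaperone clusterin. The 1276 cells in the top 10% by Acta2 and the 1276 in the top 10% by Clu were compared, after leaving out 29 cells in both. The cutoffs were 863.5 CPM for Acta2 and 344 CPM for Clu, and 239 and 252 cells lay within 10% of them, so the classes are ranges and not types. The Clu-high cells held 291 tag 4 cells and 73 tag 1 cells, and the Acta2-high cells 67 and 322. Of the Clu-high cells 58.7% were Xist only and 16.9% Y-linked only, against 23.8% and 35.97% of the Acta2-high cells. Of 11840 genes compared, 3.79% were higher and 5.94% lower in the Acta2-high cells, and of the 9 members compared 0 were higher and 1, Peg10, was lower. Peg10 was at 11.3 CPM (9.38 to 13.4) in the Acta2-high and 63.5 (58.7 to 68.5) in the Clu-high cells, a ratio of 0.178 (0.146 to 0.215). Peg3 was at 206 and 181 CPM, a ratio of 1.13 (1.07 to 1.21), and Cdkn1c was at 11.8 and 11.7 CPM. The median log2 ratio was -0.21 over the members and -0.10 over all genes.

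Within tags, the Peg10 difference between Acta2-high and Clu-high cells held in each and the Peg3 difference changed direction. Peg10 was at 6.93 CPM in the Acta2-high and 61.8 in the Clu-high cells of tag 1, 23.6 and 81.1 in tag 2, 13.2 and 40.7 in tag 3, and 19.7 and 67.1 in tag 4. The ratios were 0.112 (0.0596 to 0.202), 0.291 (0.169 to 0.483), 0.325 (0.133 to 0.869) and 0.294 (0.168 to 0.484), all under 1. Peg3 was at 72.1 CPM in the Acta2-high and 127 in the Clu-high cells of tag 1, and at 60.6 and 117 in tag 3. In tags 2 and 4 the order was turned, with 290 in the Acta2-high and 130 in the Clu-high cells of tag 2 and 395 and 179 in tag 4. The ratios were 0.570 (0.436 to 0.749), 2.22 (1.76 to 2.82), 0.518 (0.322 to 0.864) and 2.20 (1.91 to 2.54) for tags 1 to 4. The Grb10 ratios for the same order of tags were 0.760 (0.597 to 0.974), 1.28 (1.01 to 1.61), 0.808 (0.519 to 1.31) and 1.01 (0.830 to 1.23), and the intervals of tags 3 and 4 lay around 1. Clu-high cells of tags 1 and 3 were few (73 and 20), and 23.3% and 55% of them were Xist only against 3.73% and 1.44% of the Acta2-high cells there, while in tags 2 and 4 the Xist-only share was 62.2% and 61.9% against 49.3% and 68.7%. The part of sex composition in this was not tested.

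**Figure D4:**
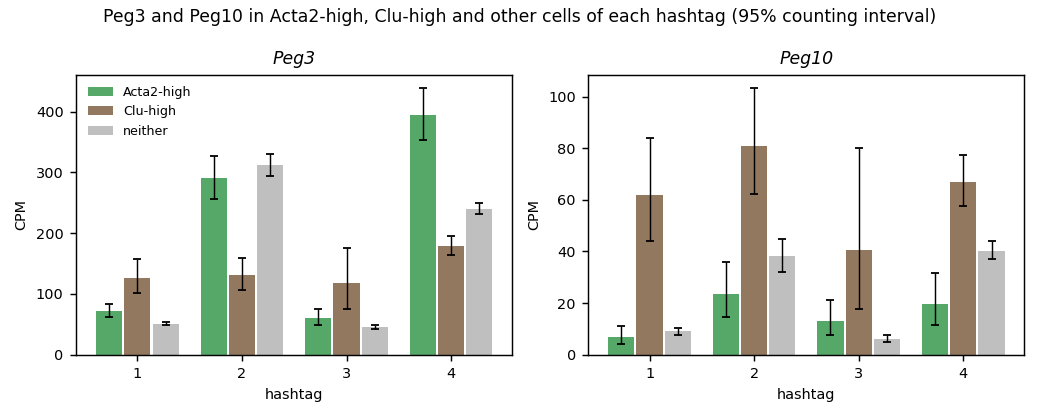
Level of Peg3 (left) and Peg10 (right) in CPM by hashtag for Acta2-high, Clu-high and other cells, with 95% counting intervals. Peg10 is highest in the Clu-high cells of each tag, and Peg3 is higher in Clu-high than in Acta2-high cells in tags 1 and 3 (127 and 72.1 in tag 1) and lower in tags 2 and 4 (130 and 290 in tag 2).

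Ranking the cells inside each tag by Clu shares its gene and part of its cells with the Clu-high class, so it is no separate support. Only 28.36% of all cells held a Clu UMI, and cells with equal values were put in random order. Deciles 6 to 9 held 124 Clu UMIs in 1258 cells of tag 1 and 22 in 600 cells of tag 3. Most of these cells thus held none, as in the lower 50%. Along this ranking the Peg10 level was highest in the top decile of each tag. It was at 6.19 CPM in the lower 50% of tag 1 cells, 8.24 in deciles 6 to 9 and 35.4 in the top decile. In tag 2 it was at 33.8, 46.3 and 69.3, in tag 3 at 3.75, 6.10 and 24.5, and in tag 4 at 36.3, 48.9 and 64.6. Its intervals for the lower 50% and for deciles 6 to 9 overlapped in every tag but tag 4. Peg3 was at 42.9, 57.5 and 103.5 CPM over the same bins of tag 1, and at 349, 234 and 84.9 in tag 2, so the order was opposite. Tag 3 followed tag 1, at 39.5, 48.5 and 81.8, and tag 4 followed tag 2, at 269.5, 212.5 and 166. The top decile by Clu in tag 2 was 49 cells. Ranked by Acta2 instead, Peg3 stood at 45.7, 256, 45.7 and 188 CPM for the lower 50% of tags 1 to 4. Its top-decile levels were 75.5, 289, 57.1 and 374, each higher, with overlapping intervals for tags 2 and 3. Peg3 thus changed direction along Clu only. Peg10 was lower at the top of the Acta2 ranking except in tag 3. There the lower 50% held 6.91 CPM (5.1 to 9.1) and the top decile 12.1 (7.1 to 19.4). The Peg10 intervals overlapped for tags 1 and 3.

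The same members were compared along cell division, a feature that p57 and Plagl1 act on. Cells were ranked by 8 dividing-cell genes, and the top 10% were set against the lower 50%, where Mki67 was at 253 and 1.22 CPM. Meg3 was at 93.5 CPM in the dividing and 243 in the other cells, a ratio of 0.384 (0.362 to 0.408). It was lower in each tag, at 0.466 (0.414 to 0.522), 0.384 (0.290 to 0.499), 0.583 (0.505 to 0.670) and 0.297 (0.245 to 0.356) in tags 1 to 4. Cdkn1c was at 14.3 and 10.1 CPM, a ratio of 1.42 (1.19 to 1.68), and the order held in tag 1, at 36.1 and 18.6 CPM (ratio 1.94, 1.51 to 2.48). Tags 2 to 4 gave ratios of 1.62, 1.47 and 0.787 with intervals around 1, so that tag 4 lay the other way. Plagl1 was at 1.74 (1.46 to 2.07) overall and, in tags 1 to 4, at 1.14 (0.692 to 1.80), 0.731 (0.251 to 1.76), 1.76 (0.794 to 3.63) and 1.73 (1.12 to 2.62), so that tag 2 lay the other way and only the interval of tag 4 lay above 1. H19 had 58 UMIs in the 1305 dividing and 71 in the 6523 other cells, a ratio of 3.47 (2.41 to 4.98), and in tag 4 11 against 9 UMIs, while the intervals of tags 1 to 3 lay around 1. Igf2 was at 0.201 (0.0794 to 0.424) on 7 and 148 UMIs, with 0 UMIs in the dividing and 50 in the other cells of tag 3, but at 0.658 (0.125 to 2.24) for tag 1 and 0.725 (0.0789 to 3.26) for tag 4, and tag 2 held 1 UMI in all. Peg3 was at 0.998 (0.949 to 1.05) overall but tag 4 gave 0.632 (0.552 to 0.722) and tag 1 gave 0.791 (0.636 to 0.976), with intervals around 1 for tags 2 and 3. The median depth was 9119 UMIs in the dividing and 7438 in the other cells.

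**Figure D5:**
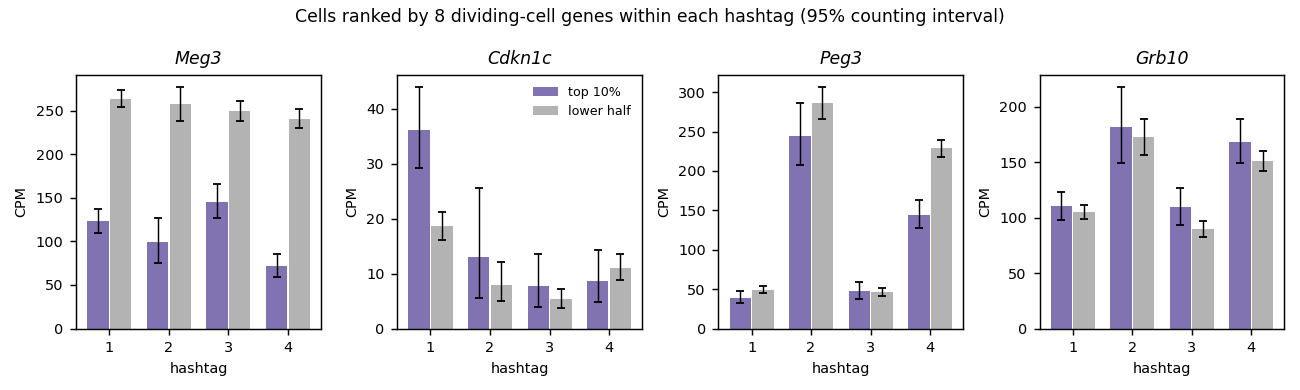
Level of Meg3, Cdkn1c, Peg3 and Grb10 in CPM by hashtag, in the top 10% of cells by 8 dividing-cell genes (purple) and the lower 50% (grey), with 95% counting intervals. Meg3 is lower in the dividing cells of each tag, at 123 against 264 CPM in tag 1 and 71.4 against 241 in tag 4, and Cdkn1c is higher in the dividing cells of tag 1.

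The other imprinted genes give the clusters around the members. Of 48 listed, 46 were in the table, and in tag 2 against tag 1, 32 could be compared, with 4 higher and 2 lower and a median log2 ratio of 0.13. Over all genes compared, 4.31% were higher and 7.81% lower. The 3 with the highest ratios were Usp29 at 8.32 (5.58 to 12.6), Zim1 at 4.17 (2.34 to 7.42) and Ppp1r9a at 2.92 (2.26 to 3.77). Usp29 and Zim1 flank Peg3, and Ppp1r9a lies beyond Peg10 on chromosome 6 (4902917 to 5165661). Usp29 was at 1.62 CPM in tag 1, 13.45 in tag 2, 2.41 in tag 3 and 10.2 in tag 4, high where Peg3 was high, and in Y-linked cells its ratio of tag 2 to tag 1 was 30.0 (14.0 to 69.8) against 1.27 (0.675 to 2.54) in Xist-only cells. Ppp1r9a likewise was at 5.99 (3.65 to 9.62) in Y-linked and 1.15 (0.699 to 1.96) in Xist-only cells, and Zim1 at 7.35 (2.42 to 20.8) and 2.89 (0.851 to 15.3) on few UMIs. Sgce, which starts next to Peg10 on the other strand and was picked after its values were seen, was at 0.786 (0.636 to 0.963) and did not follow Peg10. The lower genes were Dio3, on 1 UMI against 52, and Ampd3 at 0.394 (0.337 to 0.458), which was at 0.419 in Y-linked and 0.658 (0.481 to 0.906) in Xist-only cells. Rian and Mirg, which lie downstream of Meg3, were at 1.03 (0.913 to 1.16) and 0.767 (0.531 to 1.08), also picked after their values were seen.

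In tag 3 against tag 1, 33 of the other imprinted genes could be compared, and 2 were higher, Slc22a18 at 2.68 (1.69 to 4.29) and Begain at 2.57 (1.47 to 4.598), with 0 lower. Among Y-linked cells these were at 1.95 (1.05 to 3.64) and 2.25 (1.08 to 4.81), and the Xist-only cells held too few UMIs. In tag 4 against tag 2, 31 were compared with 0 higher and 1 lower, Zim1 at 0.466 (0.273 to 0.806), on 35 UMIs against 26. In Acta2-high against Clu-high cells, 31 were compared, with Zim1 higher at 2.44 (1.34 to 4.65) and 5 lower, of which the lowest were Ppp1r9a at 0.200 (0.153 to 0.258), Airn at 0.395 (0.363 to 0.430) and Ascl2 at 0.409 (0.263 to 0.624). Ppp1r9a and Peg10 were thus lower in the same class. With classes set among Y-linked or among Xist-only cells, Ppp1r9a was at 0.144 and 0.387, Airn at 0.368 and 0.498 and Ascl2 at 0.277 and 0.592 (0.299 to 1.16). Over all genes compared, 2.68% were higher and 5.8% lower in tag 3 against tag 1. The shares were 1.01% and 0.6% in tag 4 against tag 2, and 3.79% and 5.94% in Acta2-high against Clu-high cells.

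The insulin-like growth factor (IGF) axis, on which Igf2 and Grb10 act, had 18 genes in the table. In tag 2 against tag 1, 17 were compared, with 3 higher and 4 lower. Igfbp5, an IGF binding protein, was at 2.49 CPM in tag 1 and 28.7 in tag 2, a ratio of 11.5 (8.52 to 15.8). Stc1, an inhibitor of the protease that frees IGF, was at 2.95 (2.54 to 3.44) and Igf2bp1, which binds Igf2 mRNA, at 2.75 (2.35 to 3.204). All 3 were past the bound in Y-linked cells, at 36.6 (14.0 to 112), 3.59 (2.60 to 4.88) and 4.29 (3.22 to 5.64). None was in Xist-only cells, at 1.97 (1.27 to 3.14), 1.102 (0.848 to 1.44) and 1.19 (0.880 to 1.63). The binding proteins Igfbp3 and Igfbp6 were at 0.158 (0.119 to 0.206) and 0.229 (0.192 to 0.272) of the tag 1 level, and stayed under 0.5 in cells of each kind. Igfbp2 had 67 UMIs in tag 1 and 0 in tag 2, at least 5.16-fold lower against a floor of 3 UMIs in tag 2, and the exact interval of the ratio, which also holds the counting error of tag 1, reached 0.245. In tag 3 against tag 1 the only call was Pappa, the protease, at 0.374 (0.338 to 0.414), and in tag 4 against tag 2 it was Pappa at 2.14 (1.93 to 2.36). Pappa was past the bound in Y-linked cells, at 0.302 and 4.59, and inside it in Xist-only cells, at 0.693 (0.512 to 0.930) and 1.65 (1.46 to 1.89). In Acta2-high against Clu-high cells, 4 of 16 were lower and 0 higher, with Stc1 at 0.249 (0.213 to 0.289), Stc2 at 0.457 (0.326 to 0.634) and Igfbp4 at 0.460 (0.381 to 0.553) the lowest, of which Stc2 and Igfbp4 were at 0.628 and 0.616 among Y-linked cells. The median log2 ratio of the axis was 0.18, -0.14, 0.22 and -0.33 in the 4 comparisons. In the same order, 4.31%, 2.68%, 1.01% and 3.79% of all genes compared were higher, and 7.81%, 5.8%, 0.6% and 5.94% were lower.

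Likeness between genes was measured as Pearson r over 40 bins, 4 tags by 10 deciles of Acta2, among 3287 genes with at least 50 CPM in all cells. The bins share a library and differ in depth. They also span the 4 tags, by whose levels the members were selected. Only 47.08% of all cells held an Acta2 UMI, and cells with equal values were put in random order. The lower 50% of tags 1 and 4 held 0 Acta2 UMIs, so their bins are random splits of such cells. Thus r mixes differences between tags with those inside them and is a description. The genes most like Peg3 were Enah (r = 0.939), which remodels actin, Gap43 (0.935), a growth cone protein, and Xist (0.927). Those most like Peg10 were Clu (0.926), Eef1a1 (0.905) and Hsd17b10 (0.904). For Cdkn1c they were Ccl7 (0.825), Psme1 (0.821) and Col12a1 (0.805), and for Grb10 they were Peg3 (0.862), Rpsa (0.845) and Nrn1 (0.839). For Plagl1 the first was mt-Nd4l at 0.721 and for Igf2 Gclc at 0.762. Among the members, Peg3 and Grb10 had r = 0.86, Peg3 and Peg10 0.80, and Peg10 and Grb10 0.70, while Dlk1 and Meg3, of the same cluster, had 0.17 and Igf2 and H19 0.20. In tags 1 to 4 Dlk1 had 131, 41, 111 and 135 UMIs, Igf2 39, 5, 72 and 23, and H19 55, 5, 22 and 24. Spread over 40 bins these are few, so r for the last 2 pairs cannot show whether their genes vary together.

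Inside a tag, Peg3 and Peg10 were seen together in 23 of 2397 thinned cells of tag 1, where the product of their shares gives 12.5, and in 32 of 476 cells of tag 2, where it gives 38. In tags 3 and 4 the cells numbered 6 against 4.15 and 98 against 104. Dlk1 and Meg3 were seen together in 37, 9, 22 and 27 cells of tags 1 to 4, against 26.8, 6.91, 18.1 and 25.5. These shares rest on few cells and carry no test.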

How the data were processed

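The deposited values were raw UMI counts per barcode for 32285 genes and 4 hashtags, which the authors made with Cell Ranger 4 (named in the submitters' processing notes) and did not filter for cells. No source used here states the build or annotation of the genome. The count table holds 138733332 gene UMIs over 2472397 barcodes, of which 13045 were taken as cells. The members and gene lists were chosen with earlier results of these data known. Named genes were the 10 members, up to 3 genes at each end of each listed set past a ratio of 2, and 3 genes most like each member. Sgce, Rian and Mirg were added after their values were seen. The values of listed genes within cells of each sex transcript were also added after seeing the data.

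Counts were summed per tag and per class in Python 3.11.15 (numpy 2.4.6, scipy 1.17.1). Intervals were tested on simulated data. The simulated counts were Poisson draws, so this covers counting error only and not the wider spread seen between cells. Cells with fewer than 5000 UMIs were left out when thinning, 2433 in all. Scrublet (scanpy 1.11.5, expected rate 0.1) called 21.3% of cells doublets, which were kept except where stated. TMM factors came from edgeR 4.0.16. As each tag is 1 group in 1 library, no test was made. The alternatives were a stricter tag rule, no doublets, thinning, a higher UMI minimum, a mitochondrial range, cells of each sex transcript, TMM scaling, a ratio of 1.5 and classes set otherwise.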

Additional observations from a re-analysis of the deposited data

Results flagged for a closer look

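The 5307 cells without a tag enter no comparison, and all 10 members were detected in them. Peg3 was at 207 CPM there, Peg10 at 31.0, Igf2 at 2.36, Dlk1 at 13.8, Mest at 0.681, Plagl1 at 10.95, H19 at 2.99, Meg3 at 183, Cdkn1c at 7.32 and Grb10 at 149.6 CPM. Each level was above the 0.073 CPM that 3 UMIs would give in these cells. This shows detection and not by itself expression, since no sample is a control for them. The levels of 8 members lay inside the counting interval of free RNA. CPM compares shares of UMIs and not amounts, so this does not decide whether the cells expressed them. The 1299325 near-empty barcodes held 2096028 UMIs in all, while the median over all cells was 7915 UMIs per cell. Free RNA held 200 CPM of Peg3, 28.6 of Peg10, 1.43 of Igf2, 12.4 of Dlk1, 0.954 of Mest, 10.97 of Plagl1, 2.86 of H19 and 165 of Grb10. Meg3 lay above its 159 CPM (143 to 177) in free RNA and Cdkn1c below its 17.7 (12.4 to 24.3). Peg3 and Peg10 lay between the levels of tags 1 and 3 and those of tags 2 and 4, and Dlk1 lay above all 4 tags. The group of these cells is not known.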

How the results depend on the processing

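Of 66 recomputed values of the called member ratios, 47 stayed within the counting interval of the reported ratio and 19 left it. All lay on the reported side of 1, but 8 came inside the bound of 2, and 9 of the 65 with an interval had one that spanned 1. These were 5 values of H19 and, among Xist-only cells, Peg10 at 1.01 and Cdkn1c at 0.705 in tag 2 against tag 1, and Igf2 at 2.17 and Plagl1 at 0.440 in tag 3 against tag 1. Counts of members past the bound moved where cells were subset, and fewer members then reached 50 UMIs. In tag 2 against tag 1, 2 members higher became 0 among Xist-only cells, an alternative added after seeing the data. The 2 lower became 1 under the stricter tag rule, without doublets, after thinning, at 1 to 15% mitochondrial UMIs and among Y-linked cells, and 0 among Xist-only cells. In tag 3 against tag 1, 1 member higher became 0 with the mitochondrial range, among Y-linked and among Xist-only cells, and 2 lower became 1 under the stricter tag rule, the mitochondrial range and among Xist-only cells. In Acta2-high against Clu-high cells, 1 lower became 2 with the mitochondrial range and among Xist-only cells and 3 at a ratio of 1.5. No paired analysis was possible because each tag is a single group in a single library. TMM factors were 0.976 to 1.03 over the tags. H19, Igf2 and Mest were limited by depth, and classes set anew as the top 10% within each tag, with tags weighted equally, gave ratios of 0.350 for Peg10 and 1.81 for Peg3.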
